A study of Thermothelomyces thermophilus ATCC 42464 with 3 samples.

Results

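The 5 genes described here were grouped as transcription factors acting on cellulase genes in Thermothelomyces thermophilus ATCC 42464, a thermophilic fungus better known as Myceliophthora thermophila. They were taken by locus tag from a deposited table of 9292 genes: clr-2 (MYCTH_38704), xyr-1 (MYCTH_2310145), cre-1 (MYCTH_2310085), res-1 (MYCTH_2302052) and MYCTH_90344, the factor that the study's title presents as a regulator of cellulase genes. The names clr-2, xyr-1, cre-1 and res-1 come from published work and from the rule that chose the genes, since the table itself holds locus tags only. The files give no basis for the role of res-1, which is left undescribed. Their messenger RNA was followed beside that of cbh-1 (MYCTH_109566), which encodes a cellobiohydrolase, an enzyme that releases cellobiose from the ends of cellulose chains.

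Filamentous fungi make cellulases when cellulose is present and easy sugars are gone, and this switch is set by a small number of transcription factors. CLR-2, a zinc cluster protein studied most in Neurospora crassa, turns on cellulase genes when cellulose breakdown products are sensed, and XYR-1 (Xyr1 in Trichoderma reesei, XLR-1 in N. crassa) is the related activator of xylanase and, in T. reesei, cellulase genes. CRE-1 is the zinc finger repressor behind carbon catabolite repression, which keeps such genes low while glucose lasts.

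All mycelium came from strain ATCC 42464, grew for 16 h at 45 °C in Vogel's salts with 2% glucose, was washed, and spent the last 4 h in medium with 2% Avicel, a microcrystalline cellulose. In 2 libraries the genotype was wild type (WT) and in 1 it was labelled as a deletion mutant of MYCTH_90344. The labels give no number of mutant isolates and do not say whether the WT libraries were separate cultures, so the p-values rest on a spread between libraries that may be technical alone. Reads counted on genes numbered 20166880 to 21827636 per library. No marker list was used to check the mycelium, and in such bulk RNA fewer cells of a type and less RNA per cell cannot be told apart.

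MYCTH_90344, the gene named by the genotype label, was checked first. Its read count was 217 and 236 in the WT libraries and 6978 in the library labelled deletion, which is 8.80, 10.2 and 291 FPKM (fragments per kilobase of gene, scaled to library size, the unit used below for levels between genes). The level in the library labelled deletion therefore lay above both WT values and not near 0. The edgeR quasi-likelihood test gave a log2 fold change of 4.95 (SE 0.09, 95% interval 4.77 to 5.12, adjusted p = 3.14e-30), a 30.9-fold higher level. Of 8340 tested genes, 8, itself included, had a log2 fold change this high or higher. This level goes against the label, so the sample is called the library labelled deletion throughout, and every rise or fall below refers to it. The count is a sum over the gene and no coverage along it was used, so reads of the intact gene, of a part of it or of a construct carrying it, or a sample under a wrong label, cannot be told apart. The levels, ranks and shares of MYCTH_90344 in this library are therefore those of reads assigned to the locus.

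In WT mycelium on Avicel the 5 regulator genes spanned a wide range of levels, with the repressor highest and MYCTH_90344 lowest. cre-1 stood at 165 ± 9.73 FPKM (SD, n = 2), res-1 at 53.6 ± 3.76, xyr-1 at 27.4 ± 1.43, clr-2 at 21.7 ± 1.08 and MYCTH_90344 at 9.48 ± 0.956. For each pair of neighbours in this order the WT values did not overlap, including the closest pair, in which xyr-1 was 1.26 times clr-2. Among all 9292 genes ranked by FPKM, cre-1 held places 899 and 811 in the WT libraries, which is within the top 9.67% and 8.73%, while MYCTH_90344 held places 5935 and 5703. cre-1 alone supplied 59.5% ± 0.128 (SD, n = 2) of the summed FPKM of the 5 genes, and MYCTH_90344 supplied 3.42% ± 0.136.

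The order was different in the library labelled deletion. MYCTH_90344 came first at 291 FPKM, followed by cre-1 at 132, xyr-1 at 41.2, clr-2 at 23.1 and res-1 at 16.5 FPKM. MYCTH_90344 rose to place 507 among all genes, and res-1 went from places 2361 and 2183 in WT to 4780. MYCTH_90344 then supplied 57.7% of the summed FPKM of the 5 genes and cre-1 26.3%. The sum includes the MYCTH_90344 reads, so the cre-1 share fell far more than the cre-1 level. That level was 158 and 172 FPKM in the WT libraries and 132 FPKM in the library labelled deletion. Without MYCTH_90344, the other 4 regulators summed to 256 and 279 FPKM in WT and 213 FPKM in the library labelled deletion.

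**Figure D1:**
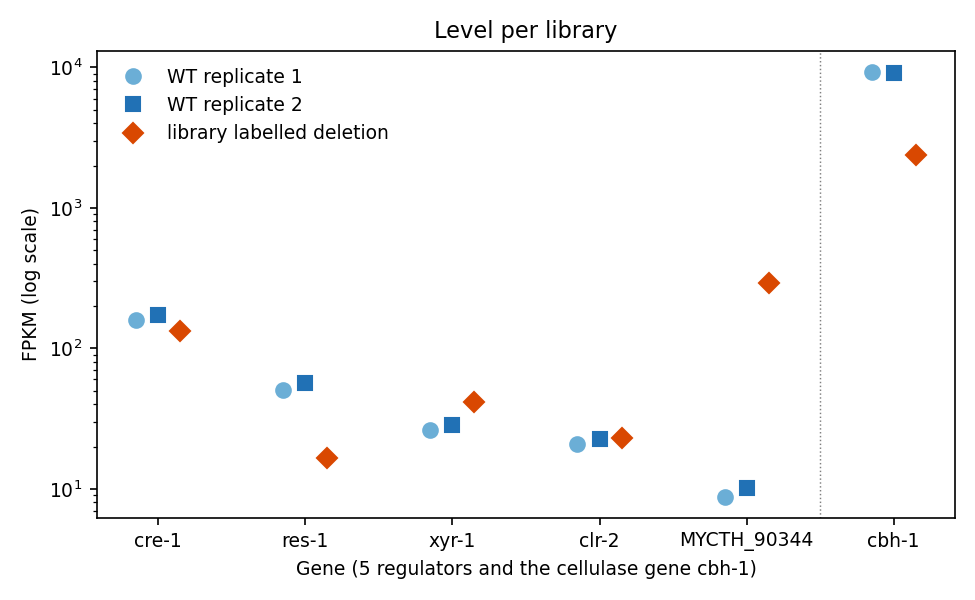
FPKM on a log axis for the 5 regulator genes and cbh-1, with 1 point for each of the 3 libraries. MYCTH_90344 is the lowest of the regulators in both WT libraries, at 8.80 and 10.2 FPKM, and the highest in the library labelled deletion, at 291 FPKM, where res-1 is lowest at 16.5 FPKM.

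The change between the library labelled deletion and WT was then tested for each gene. All 5 passed the filter on low counts. By the edgeR test, 4 of the 5 passed, with MYCTH_90344 and xyr-1 higher and res-1 and cre-1 lower (cre-1 with the opposite sign when scaled to actin), where 55.7% of all tested genes passed, 28.1% as higher and 27.6% as lower. A call alone therefore sets none of them apart from the other genes. With at least a 2-fold change as well, 2 of the 5 remained, MYCTH_90344 and res-1, against 12.6% of tested genes (5.98% higher and 6.65% lower). All 5 had a level outside both WT values, as did 90.2% of tested genes. The median log2 fold change was 0.10 over the 5 genes and 0.0049 over all tested genes.

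Among the activators, clr-2 was counted at 41.2 and 45.1 CPM (counts per 1000000 counted reads) in the WT libraries and at 46.5 CPM in the library labelled deletion. The last value lay just above the higher WT value. The log2 fold change was 0.10 (SE 0.10) and did not pass the edgeR test (adjusted p = 0.429). Its 95% interval ran from 0.928- to 1.23-fold of WT, and 85.4% of tested genes had a change of at least this size.

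xyr-1 was at 67.0 and 73.6 CPM in the WT libraries and reached 107 CPM in the library labelled deletion, clear of both. It rose 1.51-fold, with a 95% interval of 1.35 to 1.69 (log2 fold change 0.60, SE 0.08, edgeR adjusted p = 1.59e-07). A change of at least this size was found in 31.2% of tested genes. clr-2 and xyr-1 together summed to 47.3 and 50.9 FPKM in WT and 64.3 FPKM in the library labelled deletion.

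The repressor gene cre-1 was at 198 and 220.0 CPM in the WT libraries, and the library labelled deletion lay below both at 169.9 CPM. It fell 1.24-fold with TMM scaling, with a 95% interval of 1.12 to 1.38 (log2 fold change -0.31, SE 0.07, edgeR adjusted p = 0.000606), but scaled to actin the log2 difference had the opposite sign, 0.06. Actin (MYCTH_2314852, so named in published work and not in the table) itself fell, from 1924 and 1909.6 CPM in WT to 1492 CPM, a log2 fold change of -0.37 (edgeR adjusted p = 2.94e-05). A change at least as large as that of cre-1 was found in 57.5% of tested genes, and one at least as large as that of actin in 50.4%. With a larger spread assumed for every gene (a BCV of 0.1, explained below), the actin call was lost.

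res-1 gave the largest fall of the 5. It was counted 1916 and 1995 times in the WT libraries and 602 times in the library labelled deletion, or 87.8, 98.9 and 29.0 CPM, so the last value lay far below both WT values. It fell 3.24-fold, with a 95% interval of 2.82 to 3.73 (log2 fold change -1.70, SE 0.10, edgeR adjusted p = 6.76e-16). Of all tested genes, 3.11% fell by at least as much, against 28.4% for cre-1.

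**Figure D2:**
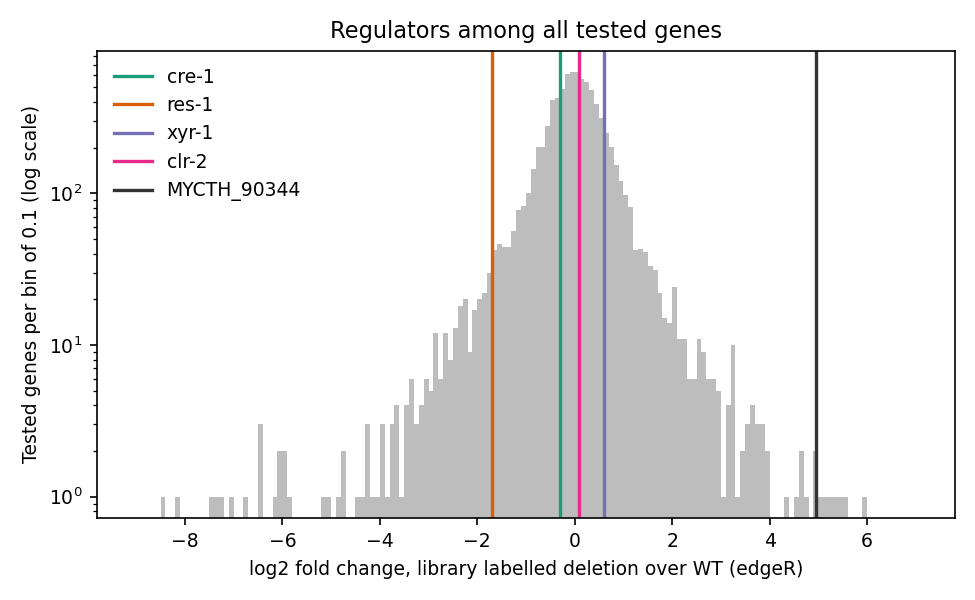
Distribution of the edgeR log2 fold change over the 8340 tested genes, in bins of 0.1 with gene counts on a log axis, with a line at each regulator. clr-2 (0.10), cre-1 (-0.31) and xyr-1 (0.60) lie in the body of the distribution, res-1 (-1.70) in the lower tail and MYCTH_90344 (4.95) near the upper end.

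Levels of the regulators were next set against cbh-1, the cellulase gene named with MYCTH_90344 in the study's title. cbh-1 held place 4 by FPKM in both WT libraries, at 9276 and 9154 FPKM, and place 37 in the library labelled deletion, at 2389 FPKM. Per unit of length, WT mycelium held 56.0 ± 3.84 (SD, n = 2) cbh-1 messages for each cre-1 message, 172 ± 13.7 for each res-1, 337 ± 20.8 for each xyr-1, 425 ± 25.0 for each clr-2 and 978 ± 108 for each MYCTH_90344. Thus MYCTH_90344 amounted to 0.0949% and 0.111% of cbh-1 FPKM in the WT libraries. In the library labelled deletion it reached 12.2%.

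The ratio to cbh-1 moved by very different amounts among the 5 genes, and these ratios are descriptions without a test. The clr-2 level was 0.226% and 0.246% of that of cbh-1 in WT and 0.968% in the library labelled deletion. For xyr-1 the values were 0.284%, 0.310% and 1.72%, and for cre-1 they were 1.70%, 1.88% and 5.54%. These 3 ratios were 4.11-, 5.81- and 3.10-fold higher than in WT, with cbh-1 itself 3.84-fold lower. Only 2.35% of tested genes fell by at least as much as cbh-1, so a higher ratio to it was shared by most genes and does not set the regulators apart. For res-1 the values were 0.549% and 0.614% in WT and 0.689% in the library labelled deletion, a 1.19-fold higher ratio, as res-1 and cbh-1 both fell. The 95% interval of the res-1 log2 fold change, -1.90 to -1.50, overlapped that of cbh-1, -2.10 to -1.79, and the difference between them was not tested.

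**Figure D3:**
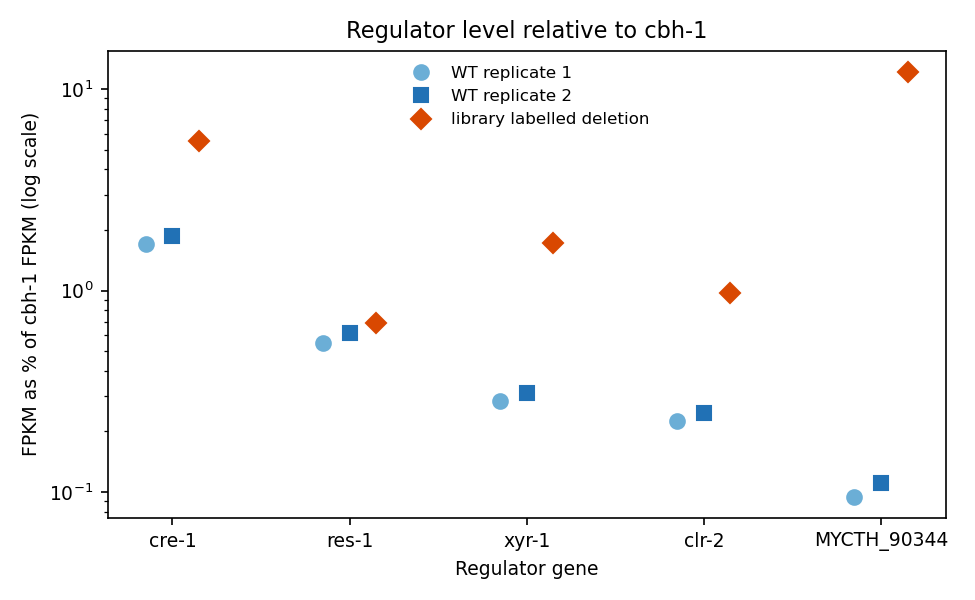
FPKM of each regulator as a percentage of cbh-1 FPKM on a log axis, with 1 point per library. The ratio is higher in the library labelled deletion for each of the 5 genes, from 1.19-fold for res-1 to 119-fold for MYCTH_90344. Only 2.35% of tested genes fell by at least as much as cbh-1, so most genes share a higher ratio.

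The other genes of cellulose breakdown give the frame for these values. Like the regulators, they were chosen with earlier results of these data known, so a count over them is a description and not independent support. The list held 8 genes: cbh-1 and cbh-2, cellobiohydrolases; MYCTH_86753, MYCTH_111372 and MYCTH_76901, endoglucanases that cut within chains; MYCTH_66804 and MYCTH_115968, beta-glucosidases that split cellobiose; and MYCTH_111388, a cellobiose dehydrogenase. All 8 passed the edgeR test as lower and by at least 2-fold, against the 6.65% of tested genes given above, with log2 fold changes between -2.58 and -1.30 and a median of -1.80. With a larger spread assumed for every gene (a BCV, explained below), these calls ended between 0.25 for cbh-2 (edgeR likelihood ratio test, adjusted p = 0.0715) and 0.4 for MYCTH_66804 and MYCTH_111388 (adjusted p = 0.079 and 0.132), where none of the 8 passed. The res-1 value of -1.70 lay within the range of the enzyme log2 fold changes and those of the other 4 regulators lay above it. So did most tested genes, as only 5.16% fell by at least as much as cbh-2, the enzyme gene with the smallest fall. The summed FPKM of the 8 genes was 25235 and 25001 in WT and 8036 in the library labelled deletion.

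**Figure D4:**
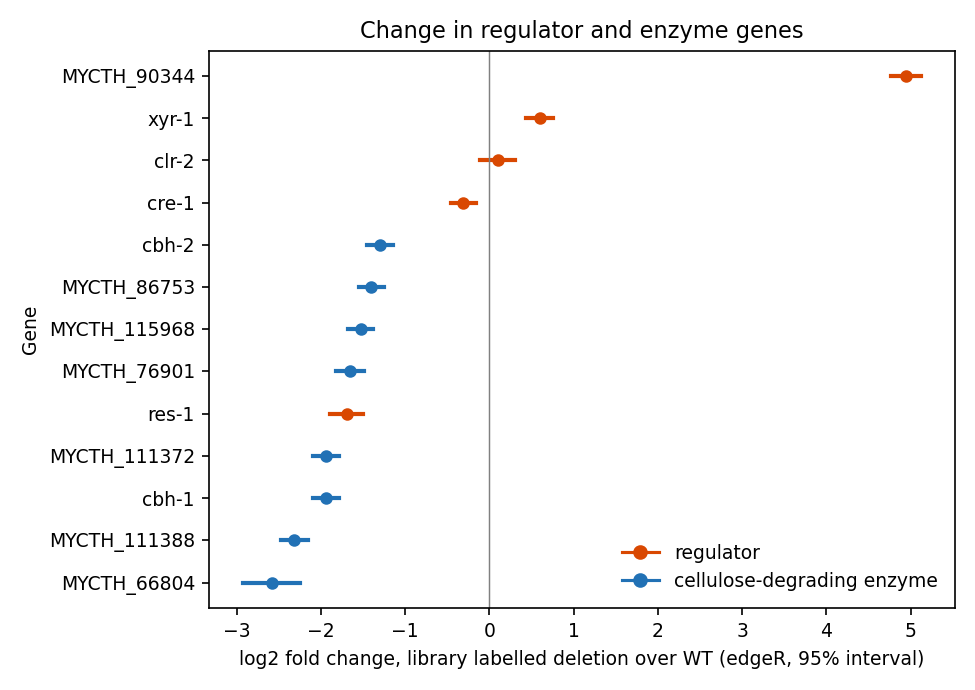
edgeR log2 fold change with its 95% interval for the 5 regulator genes and the 8 cellulose-degrading enzyme genes. res-1, at -1.70, sits among the enzymes, which run from -2.58 to -1.30, while cre-1, clr-2, xyr-1 and MYCTH_90344 lie above all of them. Most tested genes lie above them too, since 5.16% fell by at least as much as cbh-2, the uppermost enzyme.

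Relations among the regulators were nearly the same in the WT libraries and differed in the library labelled deletion. The FPKM of cre-1 was 5.99 and 6.05 times that of xyr-1 in WT and 3.21 times in the library labelled deletion. Against clr-2 the cre-1 level was 7.53- and 7.63-fold in WT and 5.72-fold in the library labelled deletion. xyr-1 was 1.257 and 1.262 times clr-2 in WT and 1.78 times in the library labelled deletion. res-1 exceeded both activators in WT, at 2.43 and 2.50 times clr-2 and 1.93 and 1.98 times xyr-1. In the library labelled deletion it was below both, at 0.711 of clr-2 and 0.399 of xyr-1. These ratios compare genes within a library, so a scaling factor common to all genes of a library cancels out of them. They were not tested. As 90.2% of tested genes had a level outside both WT values, a shifted ratio alone does not set these genes apart.

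Genes next to the 4 regulators other than MYCTH_90344 were examined to see whether a change was shared along the chromosome. For res-1, the gene on one side, MYCTH_2302048, was at 43.2 and 51.0 CPM in the WT libraries and at 49.7 CPM in the library labelled deletion (log2 fold change 0.07, edgeR adjusted p = 0.589), so it did not show the fall of res-1. The gene on the other side, MYCTH_2302055, had under 0.2 CPM in each library and was not tested. The neighbours of clr-2 were lower: MYCTH_2298752 had a log2 fold change of -0.89 (edgeR adjusted p = 0.00656) and MYCTH_59946 of -0.33 (edgeR adjusted p = 0.0137). As 27.6% of all tested genes were called lower, these calls do not set the neighbours apart. Neither call was tried with a larger assumed spread. The neighbours of xyr-1, MYCTH_2310143 and MYCTH_2112717, were not called, at log2 fold changes of 0.43 and 0.68 (edgeR adjusted p = 0.0926 and 0.456). Levels of several neighbours were low. In WT replicate 1, WT replicate 2 and the library labelled deletion, MYCTH_2298752 was at 5.86, 5.31 and 3.03 CPM. MYCTH_2310143 was at 5.41, 5.80 and 7.61 CPM (SE 0.22) and MYCTH_2112717 at 0.504, 0.446 and 0.770 CPM (SE 0.74). Whether the xyr-1 rise was shared by its neighbours therefore cannot be told. The genes beside cre-1, MYCTH_t165 and MYCTH_t166, are listed as tRNA genes in assembly ASM22609v1 and had 0 counts in all 3 libraries, which allows up to 0.149 CPM in the least deep of them.

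The gene most like each regulator in its pattern over the 3 libraries was found among 6337 other tested genes averaging 10 CPM or more, by the root mean square difference of centred log2 CPM. MYCTH_2302991 was nearest to res-1, with 20.1, 22.5 and 6.55 CPM in WT replicate 1, WT replicate 2 and the library labelled deletion (difference 0.0047). MYCTH_82772 was nearest to MYCTH_90344 and less close (difference 0.105), with 338 and 333 CPM in the WT libraries and 10182 CPM in the library labelled deletion. MYCTH_2311492 was nearest to clr-2, MYCTH_2309213 to xyr-1 and MYCTH_2309310 to cre-1. With only 3 libraries such likeness is common: 1521 genes lay within 0.1 of clr-2, 1082 of cre-1, 660 of xyr-1, 38 of res-1 and 0 of MYCTH_90344. The WT libraries differed little, by a median of 0.0951 in log2 CPM over tested genes. These numbers therefore mostly follow the size of each gene's change and add no separate evidence of a distinct pattern.

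How far each call holds depends on how much a single library is taken to vary. The test took its spread from the WT pair, in which the biological coefficient of variation (BCV, the relative spread between libraries beyond counting error) was 0.0484, and the library labelled deletion was assumed to vary as little. With a BCV set for every gene in an edgeR likelihood ratio test, on a grid in steps of 0.05, the cre-1 call held up to 0.05 (adjusted p = 0.00219) and was lost at 0.1 (adjusted p = 0.167). The xyr-1 call held up to 0.1 (adjusted p = 0.00357) and was lost at 0.15 (adjusted p = 0.0913). The res-1 call held up to 0.25 (adjusted p = 0.0096) and that of MYCTH_90344 up to 0.65 (adjusted p = 0.026), while cbh-1 held up to 0.3 (adjusted p = 0.0242). At a BCV of 0.2, 12.2% of tested genes passed, among them res-1 and MYCTH_90344 of the 5 regulators. At 0.4, MYCTH_90344 was the 1 regulator among the 1.67% that passed.

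**Figure D5:**
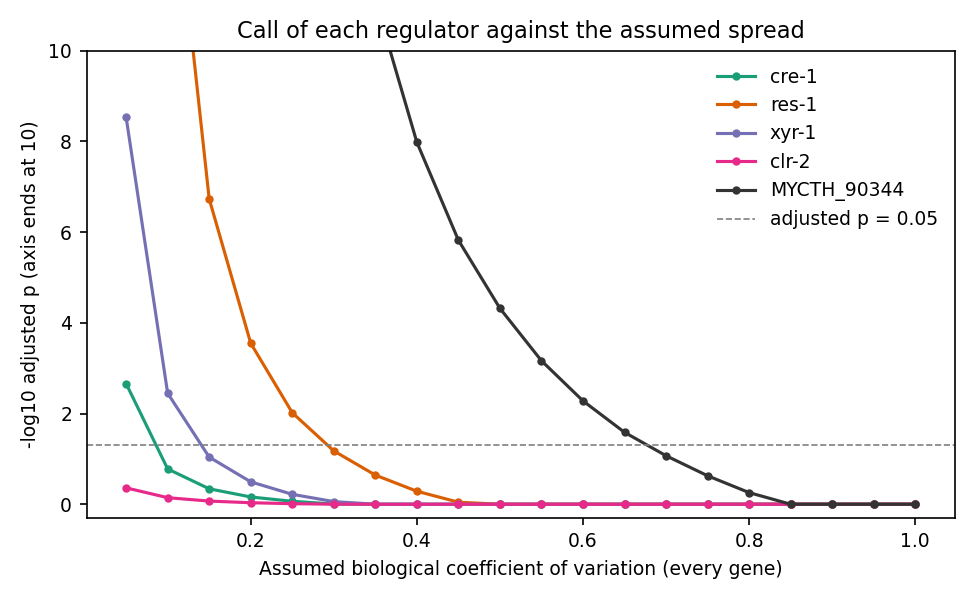
Adjusted p of each regulator, as -log10, against the BCV assumed for every gene in the edgeR likelihood ratio test, with a dashed line at 0.05. cre-1 and xyr-1 drop below the line by 0.1 and 0.15, res-1 by 0.3 and MYCTH_90344 by 0.7, and clr-2 is below it throughout.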

How the data were processed

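RNA was sequenced from 3 libraries. For each of 9292 genes the authors deposited a raw read count and an FPKM value, so named per the file headers. TopHat2 2.0.8b and HTSeq 0.5.4p2 are listed in the submitters' processing notes. How they were set, and the build and strandedness, is not given in the sources used here, and reads of overlapping or antisense genes may be shared. The FPKM held the same changes as the counts up to 1 factor per library (largest relative deviation 2.9e-08 over 8549 genes). CPM were counts over the library's total of counts.

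Genes kept by filterByExpr (8340) were fitted in edgeR 4.0.16 (R 4.3.3) with TMM scaling, glmQLFit and glmQLFTest, and p-values were Benjamini-Hochberg adjusted over all of them, with a threshold of 0.05. With 1 library labelled deletion, 1 residual degree of freedom per gene came from the WT pair. The SE was the log2 fold change over the square root of F. Alternatives used DESeq2 1.42.0, other scalings, filters and spreads. The quasi-likelihood fit was run on simulated data in which all libraries had the same spread, and its outcome is not given. That run cannot show whether the library labelled deletion varies more than the WT pair, so no call rests on it. All 9292 locus tags matched assembly ASM22609v1, used for gene order only. The named genes were the 5 regulators, the enzyme list, actin, the neighbours of the regulators other than MYCTH_90344, and the nearest patterns. Members and lists were chosen with earlier results of these data known. A planned list of DNA-binding proteins had no protein table and was not made.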

Additional observations from a re-analysis of the deposited data

How the results depend on the processing

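Directions of the 5 log2 fold changes held in the alternatives tried, except that of cre-1, which was 0.064 scaled to actin. The other genes scaled to actin moved to 0.47 for clr-2, 0.97 for xyr-1, -1.32 for res-1 and 5.32 for MYCTH_90344, since actin was lower in the library labelled deletion. Over DESeq2, 3 other scalings and 2 other filters no call changed. A larger assumed spread ended calls by its own construction. With a BCV of 0.1 the cre-1 call was lost (log2 fold change -0.31, adjusted p = 0.167). With 0.2 the calls of cre-1 (-0.31, adjusted p = 0.692) and xyr-1 (0.59, adjusted p = 0.321) were lost, leaving 2 of the 5 genes past the test against 4. With 0.4, an alternative chosen after the data were seen, as was the grid of spreads, cre-1 (-0.31), xyr-1 (0.59) and res-1 (-1.70) were lost, with adjusted p of 1.00, 1.00 and 0.517 in the edgeR likelihood ratio test. That left 1 of the 5 regulators and 0 of the 8 enzyme genes, where 1.67% of tested genes passed. The counts past the test of all genes were 4643 in the edgeR quasi-likelihood test, 3150 with DESeq2, 1017 with a BCV of 0.2 and 139 with 0.4. Without WT replicate 1 or 2, values with no test, the log2 fold changes were 0.04 to 0.15 for clr-2, 0.54 to 0.65 for xyr-1, -0.38 to -0.24 for cre-1, -1.77 to -1.61 for res-1 and 4.83 to 5.05 for MYCTH_90344. CPM in place of FPKM gave log2 ratios to cbh-1 in WT of -8.42 against -8.73 for clr-2, -7.72 against -8.40 for xyr-1, -6.14 against -5.81 for cre-1, -7.31 against -7.43 for res-1 and -10.42 against -9.93 for MYCTH_90344, because CPM does not allow for gene length. The order of the 5 genes was the same by either unit in WT and in the library labelled deletion. The count of DNA-binding motif genes was not run. No paired analysis was possible because a single library carried the deletion label, so no 2 pairs exist. Counting depth limited MYCTH_90344 in WT most, with 217 and 236 reads.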

Other observations

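The 5 regulator genes were each higher in WT replicate 2 than in WT replicate 1, by 0.11 for clr-2, 0.12 for xyr-1, 0.13 for cre-1, 0.16 for res-1 and 0.22 for MYCTH_90344 on the log2 CPM scale after TMM scaling. Of all tested genes, 50.4% were higher in WT replicate 2, and 23.2% by at least the clr-2 difference. cbh-1 differed by -0.01 between the same libraries.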
